A study of Mus musculus with 4 samples.

Results

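The proteins of the cytosolic ribosome were represented by 72 genes of 17097 measured in cultured mouse brown adipocytes. The genes were taken by symbol, as those beginning with Rpl, Rps or Rpsa that the array's annotation pairs with a probe set of their own, leaving out the Rps6k kinases and symbols of pseudogenes. By the start of the symbol alone, 46 were assigned to the large (60S) subunit and 25 to the small (40S) subunit. The last, Rps19bp1, shares the name but encodes a protein that binds Rps19 and belongs to neither subunit. Each gene was read from its brightest probe set over the 4 arrays. The 72 genes have 135 probe sets, and 34 of them have more than 1. Rps3, Rps27, Rps27a and Rpl5 were not among the 72, because the annotation gives them no probe set of their own.

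Cytosolic ribosomes translate nearly all the proteins of a cell, and each carries a single copy of most of its proteins, assembled in the nucleolus on ribosomal RNA. The messenger RNAs of these proteins are abundant, and most start with a short run of C and T bases at the very 5' end (a 5' terminal oligopyrimidine tract, or TOP), through which the kinase complex mTORC1 and the protein LARP1 control their translation. Mitochondria have ribosomes of their own, whose proteins are encoded by a different set of nuclear genes.

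The study compared brown adipocytes that expressed a scrambled short hairpin RNA (shRNA) with brown adipocytes that expressed an shRNA directed at Blnc1, a long noncoding RNA of brown fat. Both groups were differentiated for 6 days, and each had 2 arrays described as biological replicates, so that the number of arrays limits the precision of every value. No further allele, drug or stimulus is named for either group. The hairpin sequences and whether the cells were clonal are not stated in the labels. Blnc1 has no probe set under that name in the annotation, so the depth of the knockdown was not analysed here. Values are log2 expression values, 1 per probe set and array.

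Some whole-array measures differed between the groups. For Actb, the 3' control probe set exceeded the 5' one by 1.07 ± 0.11 log2 units (SD, n = 2) in scramble and by 1.82 ± 0.08 (SD, n = 2) after knockdown, and for Gapdh by 0.06 ± 0.04 and 0.37 ± 0.04. The control probe sets for the 5' end of 18S ribosomal RNA, the RNA of the small subunit, read 4.74 and 3.80 in scramble and 6.23 and 6.45 after knockdown, while those for its 3' end read 7.21, 6.38, 6.92 and 7.47. Marker genes are read against all genes, of which 7.18% were lower and 11.4% higher by limma. Of 12 measured hepatocyte markers 9 were lower after knockdown and 1, Trf, was higher, with a summed linear level of 388 to 465 in scramble and 307 to 359 after knockdown, and of 10 preadipocyte and fibroblast markers 7 were higher and 0 lower, with sums of 1671 to 1723 and 2602 to 2763. Of 9 brown adipocyte markers 6 were lower and 1 was higher, and of 6 general adipocyte markers 0 were lower and 1 was higher. The part of these shifts in the results on ribosomal protein genes was not tested.

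The sequence around the transcription start is shown for the genes that the comparison turns on, because the TOP tract lies there. The set of RefSeq (GRCm38.p6) starts used here holds 58 of the 72 genes, among them 7 of the 9 genes that were lower after knockdown. A gene missing from it may still have a start in RefSeq. Starts on a single chromosome and those without a promoter sequence of 300 bases were not used. Each window runs from 15 bases before the start to 15 bases into the transcript, 5' to 3' on the gene's strand, and capitals mark its longest run of C and T.
Rpl39l (chr16:10170213-10170242, plus strand): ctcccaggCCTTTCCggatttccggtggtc
Rps12 (chr10:23787195-23787224, minus strand): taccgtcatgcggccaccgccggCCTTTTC
Rps10 (chr17:27635230-27635259, minus strand): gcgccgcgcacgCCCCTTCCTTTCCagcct
Rpl36a (chrX:134585639-134585668, plus strand): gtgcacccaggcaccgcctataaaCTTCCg
Rpl22l1 (chr3:28805493-28805522, plus strand): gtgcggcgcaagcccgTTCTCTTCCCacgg
Rpl36al (chr12:69184053-69184082, minus strand): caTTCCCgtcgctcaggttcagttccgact
Rpl13 (chr8:123102335-123102364, plus strand): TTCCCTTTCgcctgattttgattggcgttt
For contrast, 4 genes that were not called are shown, Rps6, whose tract spans the start, and Rpsa, Rps28 and Rpl41, which had small log2 fold changes. They are examples, and other genes with small changes have longer runs. Rpl13a (-0.02) has a run of 13 bases, and Rps21 (0.08) has a run of 7 at a listed start.
Rps6 (chr4:86857353-86857382, minus strand): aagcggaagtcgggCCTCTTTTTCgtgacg
Rpsa (chr9:120127751-120127780, plus strand): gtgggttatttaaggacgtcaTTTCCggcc
Rps28 (chr17:33824548-33824577, minus strand): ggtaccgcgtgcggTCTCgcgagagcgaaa
Rpl41 (chr10:128549154-128549183, minus strand): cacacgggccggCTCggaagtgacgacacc

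In these windows, C/T runs of at least 7 bases were found at 44.9% of the 69 listed starts of ribosomal protein genes and at 18.6% of all 32851 starts in the set used. They occurred at 5 of the 7 starts of genes that were lower and at 41.9% of the starts of genes that were not called, a difference that was not tested. The runs of Rpl39l and Rpl13 lie wholly before the listed start. A start on C followed by 4 C or T bases, the strict form of the tract, was found at 11 of the 69 starts (15.9%), against 2.51% of all starts and 0 of 75 starts of mitochondrial ribosomal protein genes. Rps10 and Rps6 have it at the listed start. The strict form was at 1 of the 7 starts of genes that were lower (14.3%) and at 16.1% of the starts of genes not called. A listed start that is a few bases off would hide a tract, so a missing match says only that these letters are not at that position. Long runs were at 46.3% of the starts of large and 44.4% of those of small subunit genes. Short motifs were searched on both strands in the 300 bases from 250 before to 50 after the start. The letters GGGCGG were in 60.9% of the windows of ribosomal protein genes and 35.7% of all windows. The shares were 44.9% and 14.9% for CCGGAA, 15.9% and 6.34% for AAGATGG, 11.6% and 7.15% for CACGTG, and 10.1% and 13.6% for TATAAA. Mitochondrial ribosomal protein genes had these motifs, in the same order, in 52%, 57.3%, 17.3%, 9.33% and 6.67% of their windows. The first 3 motifs were thus also more frequent there than in all windows.

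Most ribosomal protein genes read slightly lower after Blnc1 knockdown, and few passed the test. By limma, 9 of 72 (12.5%) were lower at an adjusted p under 0.05, where 7.18% of all genes were, and 0 were higher, where 11.4% of all genes were. At an unadjusted p under 0.05, 30 were lower and 0 higher, where 16.4% and 17.4% of all genes were. The log2 fold change was negative for 66 of the 72 and for 55.8% of all genes. Its median was -0.21 (quartiles -0.32 and -0.10), against -0.04 over all genes. After median centring of each array 59 were negative and the medians were -0.15 and 0.03, and after quantile normalization 64 were negative and the medians were -0.18 and -0.03. Both knockdown arrays lay below both scramble arrays for 62 genes (86.1%), which held for 34.3% of all genes, and above them for 4 genes, which held for 28.3%. The count of 9 moved with the setting, as did the share of all genes that were lower. Without scramble replicate 1 it was 5 (5.53% of all genes), without knockdown replicate 1 it was 0 (1.82%), and without knockdown replicate 2 it was 1 (1.49%). When limma let the variance follow the level it was 48, where 10.5% of all genes were lower. With centring it was 5 (4.94%), after leaving out the dimmest 40 percent of genes 17 (11.9%), and against a minimum log2 change of 0.25 it was 0 (1.33%).

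**Figure D1:**
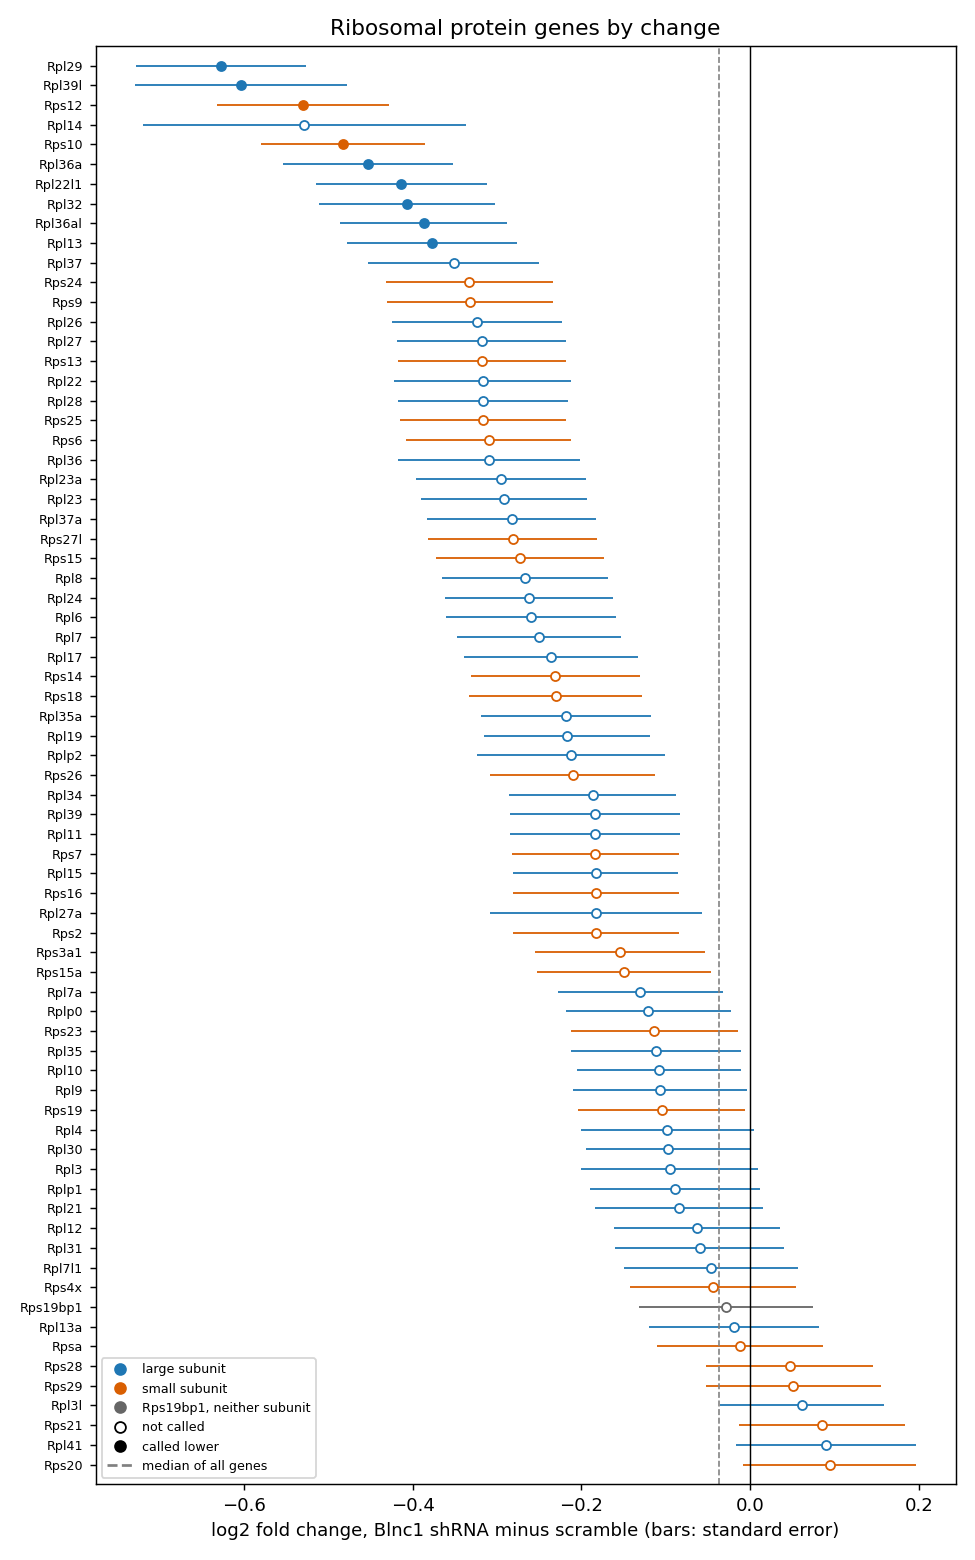
Log2 fold change (Blnc1 shRNA minus scramble, horizontal axis) of each of the 72 genes, with bars for the standard error, filled where the gene was called lower and coloured by subunit. The points run from -0.63 (Rpl29) to 0.09 (Rps20), and 66 of them are negative.

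The shift appeared on both knockdown arrays. The median log2 value of the 72 genes was 10.80 and 10.82 in scramble and 10.66 and 10.69 after knockdown. Replicate arrays differed by a median of 0.05 per gene within scramble and 0.04 within knockdown. Most of the genes are very bright, so they were also set beside other bright genes. Of 59 ribosomal protein genes with a mean log2 value of at least 10, 5 were lower and 0 higher, with a median log2 fold change of -0.19. The 204 other genes that bright had 17 lower, 21 higher and a median of -0.01, and both knockdown arrays lay below both scramble arrays for 88.1% of the former and 47.1% of the latter.

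**Figure D2:**
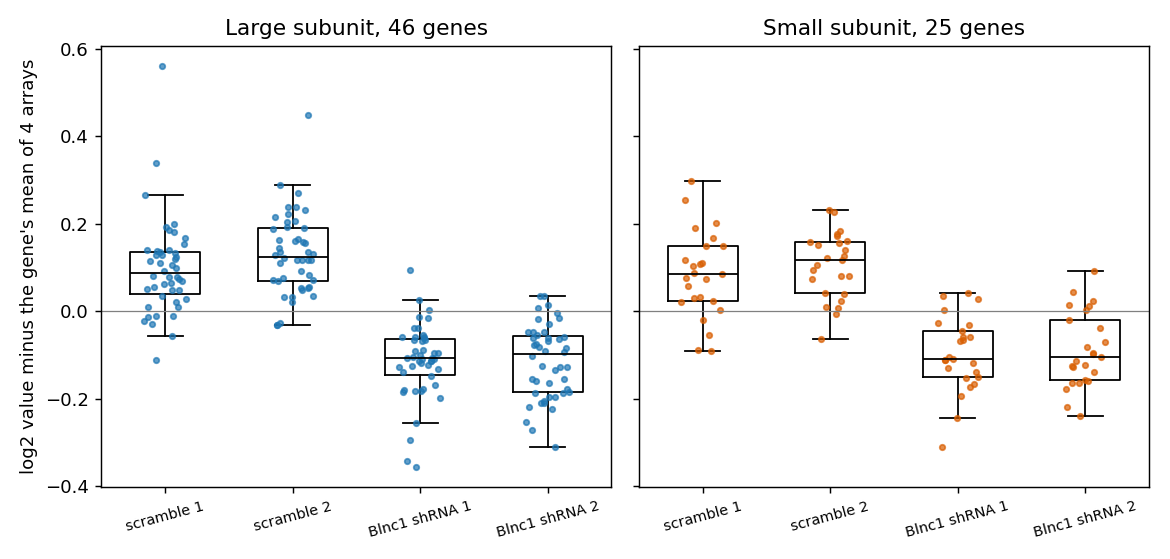
Log2 value of each gene minus its mean over the 4 arrays, by array, for the 46 large subunit genes (left) and 25 small subunit genes (right), with boxes for the quartiles and median and points for single genes. Both scramble boxes lie above 0 and both knockdown boxes below it, in each subunit.

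Genes of the large subunit included 7 of the 9 that were lower. Rpl29, a basic protein at the surface of the 60S subunit, had the largest change. It read 10.46 and 10.41 in scramble and 9.77 and 9.85 after knockdown, and so was 1.54-fold lower (log2 fold change -0.63, SE 0.10, adjusted p = 0.00772). Its groups did not overlap, and its adjusted p was 0.0644 without knockdown replicate 1 and 0.0482 without knockdown replicate 2. Rpl32 read 11.07 and 11.20 in scramble and 10.74 and 10.71 after knockdown (-0.41, adjusted p = 0.0378). Rpl13 read 10.45 and 10.55 against 10.13 and 10.11 (-0.38, adjusted p = 0.0429). Both are core proteins of the 60S subunit. For Rpl13 the probe sets went opposite ways. Its dimmer probe set, of a type that can detect several transcripts, read 8.31 and 8.18 in scramble and 8.97 and 9.05 after knockdown (0.76, adjusted p over all probe sets = 0.00566), so the direction of Rpl13 is uncertain.

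The other large subunit genes that were lower are paralogs or belong to a paralog pair. Rpl39l, a copy of Rpl39 best known from the testis, read 6.01 and 6.30 in scramble and 5.56 and 5.55 after knockdown (-0.60, adjusted p = 0.0196). Rpl39 itself, far brighter, read 11.36 and 11.45 against 11.21 and 11.24 and was not called (-0.18, adjusted p = 0.245). Rpl22l1, a paralog of Rpl22 that can take its place in the ribosome, read 9.82 and 9.85 against 9.38 and 9.47 (-0.41, adjusted p = 0.0323). None of these values overlapped between the groups. Rpl22 read 9.39 and 9.49 in scramble and 9.18 and 9.07 after knockdown (-0.32, adjusted p = 0.0798). Rpl36a, which lies near the exit site for transfer RNA, read 10.19 and 10.12 against 9.73 and 9.67 (-0.45, adjusted p = 0.024). Its retrotransposed copy Rpl36al read 10.33 and 10.35 against 9.97 and 9.92 (-0.39, adjusted p = 0.037). Both members of the Rpl36a pair were therefore lower, while in the Rpl39 and Rpl22 pairs only the copy passed the test, and the difference within a pair was not tested. Probes of near-identical copies can also share signal.

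The other 2 genes that were lower belong to the small subunit. Rps12, a protein of the head of the 40S subunit, read 9.72 and 9.66 in scramble and 9.11 and 9.20 after knockdown (-0.53, adjusted p = 0.015). Rps10, which lies near the entry channel for messenger RNA, read 10.80 and 10.77 against 10.30 and 10.31 (-0.48, adjusted p = 0.0179). Each had both knockdown arrays below both scramble arrays. A second probe set of Rps10, of a type open to cross-hybridization, had a log2 fold change of -0.08, and with the mean of its probe sets the change was -0.13 and not called.

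**Figure D3:**
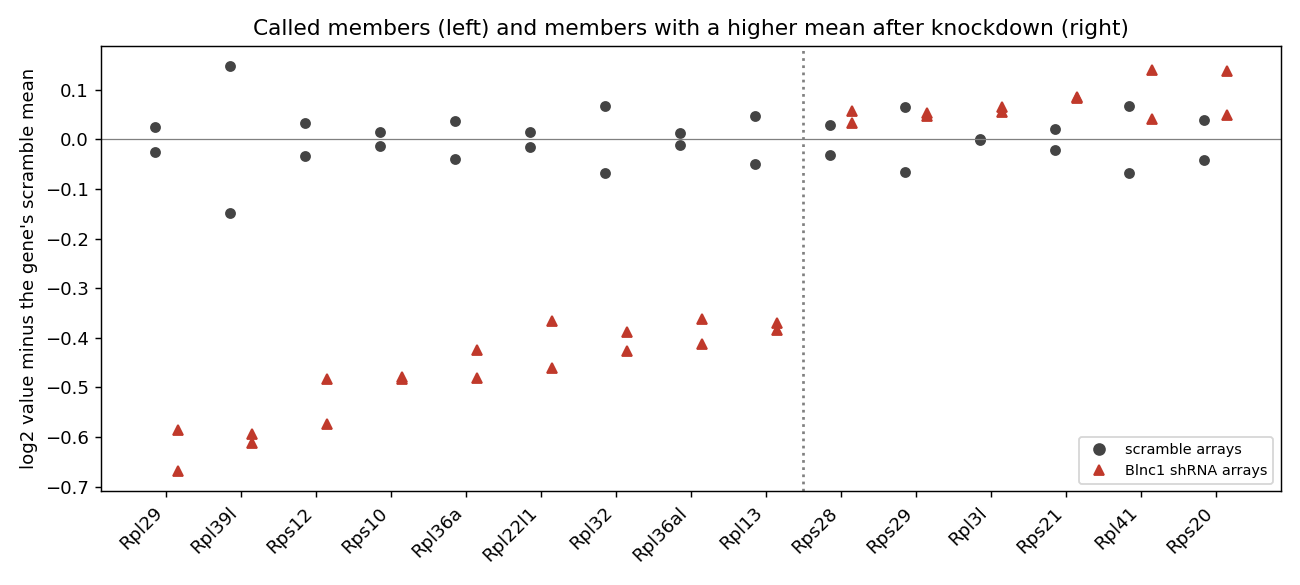
Log2 value minus the scramble mean of the same gene, on the 2 scramble arrays (circles) and the 2 knockdown arrays (triangles), for the 9 genes called lower and the 6 with a higher mean after knockdown. The triangles of the 9 genes lie clear below the circles, and those of the 6 overlap them or lie slightly above.

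Both subunits shifted down in median. Of the large subunit genes 7 of 46 (15.2%) and of the small subunit genes 2 of 25 (8%) were lower, where 7.18% of all genes were. The share in the small subunit was thus near that of all genes. Median log2 fold changes were -0.22 and -0.18, against -0.04 over all genes. The fold change was negative for 44 of 46 and 21 of 25 genes, and for 55.8% of all genes. With the variance following the level, 31 large and 17 small subunit genes were lower, where 10.5% of all genes were. The median of the large subunit minus that of the small one was -0.09 and -0.08 in scramble, and -0.17 and -0.11 after knockdown. This difference between subunits was not tested, and the 2 knockdown arrays differed in it by more than the scramble arrays did.

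The brightest of the genes was Rps6, the small subunit protein phosphorylated by S6 kinases. It read 11.86 and 11.88 in scramble and 11.56 and 11.56 after knockdown (-0.31, adjusted p = 0.07). The next brightest, Rps29 and Rplp2, were not called, at 0.05 and -0.21. Rplp0, Rplp1 and Rplp2 form the stalk that recruits elongation factors to the 60S subunit. Their log2 fold changes were -0.12, -0.09 and -0.21, with adjusted p-values of 0.431, 0.582 and 0.226. Rpl11, which with Rpl5 binds and inhibits Mdm2 when ribosome assembly is disturbed, had -0.18 (adjusted p = 0.246). Rps14 and Rps19, known from inherited and acquired anemias, had -0.23 and -0.10 (adjusted p = 0.156 and 0.504). Rpl10, a late-joining protein of the 60S subunit, had -0.11 (adjusted p = 0.482). Its other probe set, at a mean log2 value of 10.83, had -0.35 (adjusted p over all probe sets by limma = 0.0641). Rpl3, at the peptidyl transferase center, had -0.10 (adjusted p = 0.569). Rpl7 had -0.25 (adjusted p = 0.123), and its relative Rpl7l1 had -0.05 (adjusted p = 0.793), which turned positive after median centring. Rps27l had -0.28 (adjusted p = 0.0982), and Rps4x had -0.04 (adjusted p = 0.791), which also turned positive after centring.

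Some genes read nearly the same in both groups. Rpsa, a 40S protein also known as the laminin receptor, read 10.88 and 10.89 in scramble and 10.85 and 10.89 after knockdown (-0.01, adjusted p = 0.947). Rpl13a had -0.02 (adjusted p = 0.919), and Rps19bp1, the gene of neither subunit, had -0.03 (adjusted p = 0.877). The sign of all 3 turned after median centring of each array. The 6 genes with a positive log2 fold change, chosen here after their values were seen except for Rpl3l and Rps29, were Rps20 (0.09), Rpl41 (0.09), Rps21 (0.08), Rpl3l (0.06), Rps29 (0.05) and Rps28 (0.05). None was called. The sign of Rps20 and Rpl41 depended on the probe sets, with -0.07 and -0.02 for the mean of a gene's probe sets and -0.28 and -0.11 without x_at and s_at probe sets. Rps20 read 11.09 and 11.17 in scramble and 11.18 and 11.27 after knockdown. Rps21 read 10.74 and 10.70 against 10.80 and 10.81. Of the 6, Rpl3l, a form made in striated muscle, was at background in both groups, at a mean log2 value of 2.33 where background reaches 2.55.

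Few of the genes were dim. Rps15a, at 2.62 and 2.55 in scramble and 2.38 and 2.49 after knockdown, was at background in knockdown. Its probe set may say little about the gene, since a probe set named for the pseudogene Rps15a-ps6 read 11.07 on average. Rpl14 read 4.42, 3.83, 3.52 and 3.67 and had the largest standard error of the 72 genes, 0.19 (-0.53, adjusted p = 0.103). The 4 brighter probe sets that the annotation shares between Rpl14 and Rpl14-ps1 had log2 fold changes from -0.21 to -0.04.

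**Figure D4:**
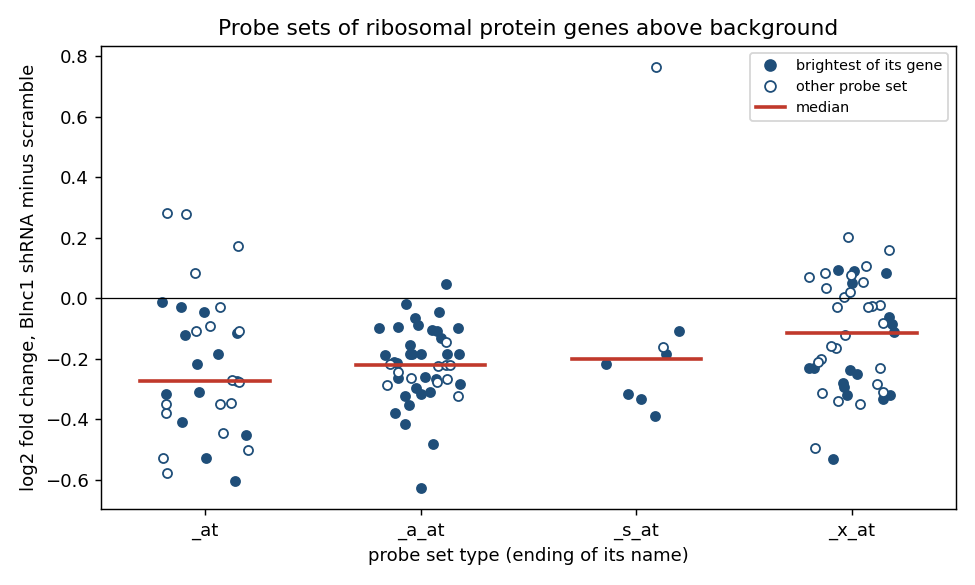
Log2 fold change (vertical axis) of probe sets of the 72 genes above background, by the ending of the probe set's name, filled for the brightest probe set of a gene, with a red line at the median. Probe sets ending in x_at, which are open to cross-hybridization, have a median of -0.12, against -0.27 for those ending in at.

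Ribosomal protein genes have many processed pseudogenes, so the type of probe set was examined. Of 44 probe sets ending in x_at, 30 had a negative and 14 a positive log2 fold change, with a median of -0.12. Of 32 ending in at, 28 were negative with a median of -0.27, and of 44 ending in a_at, 43 were negative with a median of -0.22. The 8 ending in s_at had a median of -0.20, and Rpl13's was the highest at 0.76. Without x_at and s_at probe sets, 63 of the 72 genes had a value and 11 were lower, where 6.9% of all genes were. Their median was -0.22, against -0.04 over all genes.

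The genes of the mitochondrial ribosome were set beside the cytosolic ones. Of 73 measured, 37 (50.7%) were lower and 0 higher by limma, where 7.18% and 11.4% of all genes were, and at an unadjusted p under 0.05 the counts were 55 and 1. Their median log2 fold change was -0.36 at a median level of 7.73, against -0.21 at a median level of 10.76 for the cytosolic genes. The difference between these groups of genes, and the part of their different levels in it, was not tested. With knockdown replicate 1 left out 10 of the 73 were lower, where 1.82% of all genes were, and with replicate 2 left out 8 were, where 1.49% of all genes were.

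**Figure D5:**
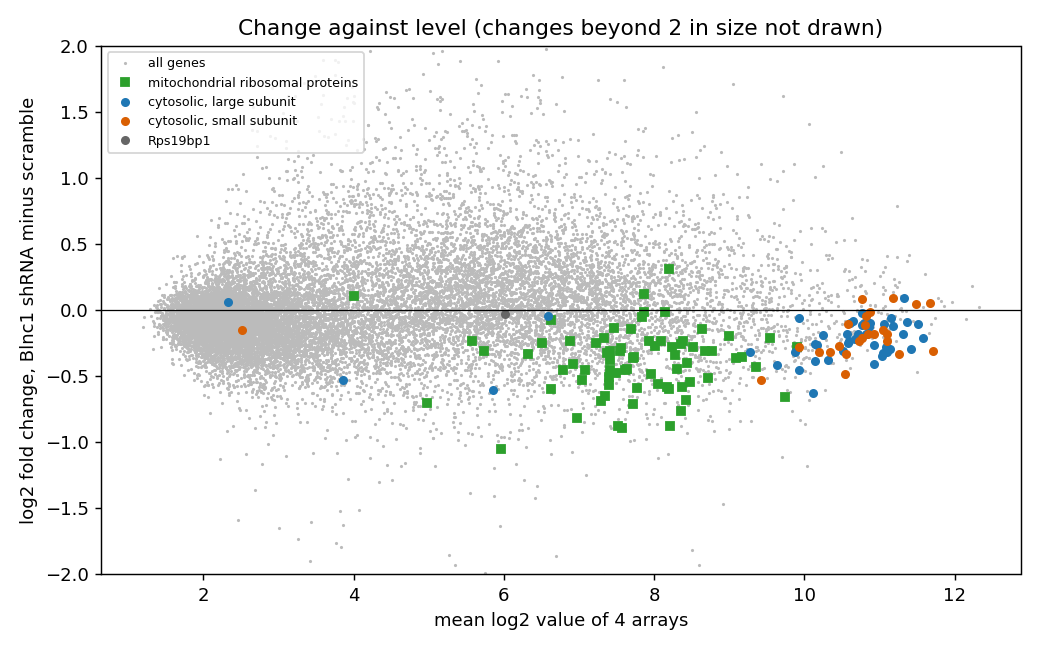
Log2 fold change (vertical axis) against the mean log2 value of the 4 arrays (horizontal axis) for all genes (grey), mitochondrial ribosomal protein genes (green squares) and cytosolic ones (circles by subunit). The cytosolic genes crowd at the right, mostly between -0.6 and 0.1, and the mitochondrial genes lie in the middle and lower.

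Lists of genes that make, use or sense ribosomes are read against the 7.18% of all genes that were lower and the 11.4% that were higher. Of 77 measured ribosome biogenesis genes, 10 were lower (13%) and 4 higher (5.19%), with a median log2 fold change of -0.12. Nop10, a protein of the RNPs that pseudouridylate ribosomal RNA, read 10.26 and 10.17 in scramble and 9.52 and 9.38 after knockdown (-0.76, adjusted p = 0.0048). Of the 4 that were higher, Ftsj3 had the largest change (0.58). Of 25 genes of late maturation and of proteins that escort ribosomal proteins, 5 were lower (20%) and 2 higher (8%), with a median of -0.10. The 40S maturation kinase Riok2 was among the lower ones (-1.17, adjusted p = 0.0024), and Riok1 was among the higher ones (0.48). Of 13 genes of RNA polymerase I and its factors, which transcribe ribosomal RNA, Polr1d alone was lower (7.69%) and 0 were higher. At an unadjusted p under 0.05, 3 were lower and 0 higher, where 16.4% and 17.4% of all genes were. Of 52 translation factor genes 5 were lower (9.62%) and 3 higher (5.77%), with a median of -0.06, and the share of lower ones was thus near that of all genes. Of 20 other genes whose messenger RNAs are known to carry a TOP tract, Eef2, the translocation factor (-0.42), and Eif3k (-0.38) were lower (10%) and 0 higher, with a median of -0.17 and counts at an unadjusted p under 0.05 of 4 and 0. Both are also among the 5 lower translation factor genes, and most of the 20 are in that list too. Of 29 regulators around mTORC1, 2 were lower (6.9%) and 3 higher (10.3%), both near the shares of all genes, with a median of 0.04. Myc, a transcription factor that drives ribosome production, was lower (-0.57, adjusted p = 0.0194), and Sesn3, a sestrin that restrains mTORC1, was higher (0.90). The other lower gene was Eif4ebp1 (-0.45), and Mxd4 was also higher (0.60). Of 9 genes around p53 and ribosomal stress, 5 were higher (55.6%) and 0 lower (also 5 and 0 at an unadjusted p under 0.05), with a median of 0.56. The 5 were led by Gadd45a (2.02) and Cdkn2a (1.14) and included Mdm2 (0.56). The other 4, named here after their values were seen, were not called. They were Cdkn1a (-0.08), Bbc3 (0.07), Mdm4 (0.05) and Sesn2 (0.03). Without knockdown replicate 1 or 2, where all genes called fell from 3169 to 1232 and 1050, the called genes numbered 2 and 1 in ribosome biogenesis and 2 each time in the p53 list.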

How the data were processed

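The authors deposited 1 log2 expression value per probe set and array, from 1.05 to 12.36, for 4 arrays. Per the submitters' processing notes the tools were affy, RMA and limma, without versions, and how the values were normalized is not stated. Of 45141 probe sets, 104 are controls. Tests used R 4.3.3 and limma 3.58.1 (two-sided, lmFit and eBayes on the other 45037 with a single group term). P-values were adjusted by Benjamini-Hochberg over 17097 genes, with a threshold of 0.05. The fit was tested on simulated data. Background is the highest value of the antigenomic controls, with a single GC class of them left out. 18S probe sets were tested among the 104 controls, and again with a variance prior from all probe sets, which was added after the first values were seen. The genes and lists were chosen with earlier results of these data known. Named were all called genes, the 3 brightest and 3 dimmest, the largest standard error, paralogs and a set of well-known members, and up to 4 called genes per list, of which examples are given. Replicate numbers are only shared by the groups, and with 2 pairs their deviations (r = 0.04) do not settle whether they pair the arrays. Start windows come from RefSeq (GRCm38.p6). The alternatives were 2 other scalings, leaving out dim genes, eBayes with a trend or robust, other choices of probe set, a replicate block, each array left out in turn, and a minimum change. Plots used matplotlib 3.10.9.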

Additional observations from a re-analysis of the deposited data

Results flagged for a closer look

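Control probe sets for 18S ribosomal RNA, which enter no comparison of genes, were higher after knockdown at its 5' end by 2.07 and in its middle by 2.05 log2 units. By limma among the 104 control probe sets, the adjusted p was 0.0351 for each, and 0.723 for the 3' end, which differed by 0.40. With a variance prior from all probe sets, a setting added after those values were seen, the adjusted p-values were 0.0061, 0.00564 and 0.902. The same arrays had the higher 3' to 5' ratios of Actb and Gapdh, and their part in this difference was not tested.

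Among 3 probe sets that the annotation shares between Rpl5, a 60S protein, and Dipk1a, the 2 dimmer ones were higher after knockdown, by 0.42 (adjusted p over all probe sets by limma = 0.0459) and 0.63 (adjusted p = 0.0102). The brightest, at a mean log2 value of 11.07, had a log2 fold change of -0.19 (adjusted p = 0.237). Which of the genes each probe set reads was not tested.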

How the results depend on the processing

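With 2 arrays per group, few calls can be firm, and 0 of the 72 genes were called higher under each of the 14 alternatives. Counts of called genes were as follows where they moved.

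Median centring left 5 genes lower (3 of the large subunit), 0 called TOP genes and 0 of RNA polymerase I, and quantile normalization left 7 lower and 2 called in RNA polymerase I. These scalings moved the split over all genes to 844 lower and 2383 higher, and to 1564 and 1514. Leaving out the dimmest 40 percent gave 17 lower (7 small subunit), where 11.9% of all genes were. A variance trend gave 48 lower (31 large, 17 small), where 10.5% of all genes were lower and 15% higher. In either direction it called 27 of 52 translation factors, 11 of 20 TOP genes and 22 of 77 biogenesis genes. It also called 10 of 29 mTORC1 regulators and 57 of 73 mitochondrial ribosomal genes. The mean of all probe sets gave 14 lower (5 small), where 7.15% of all genes were. It called 4 TOP, 9 biogenesis, 3 late maturation and 2 RNA polymerase I genes, where 1223 of all genes were lower and 1792 higher. Against a log2 change of 0.25, 0 of the 72 were lower (0 large, 0 small), 1024 of all genes were called, and 2 translation factors, 0 TOP genes, 1 biogenesis, 1 late maturation, 0 RNA polymerase I, 1 mTORC1, 2 p53 and 10 mitochondrial ribosomal genes.

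Median log2 fold changes of all members, the large and the small subunit were -0.18, -0.19 and -0.16 after quantile normalization and -0.15, -0.15 and -0.12 after centring. The mean of all probe sets gave -0.19 for all members, and leaving out x_at and s_at probe sets gave -0.25 for the large subunit.

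Leaving out each array in turn, where a lone array is assumed to vary like the other group, gave 0 to 6 genes lower (large 0 to 4, small 0 to 2) and medians of -0.23 to -0.18 (large -0.25 to -0.21, small -0.21 to -0.18). Called genes numbered 1050 to 2841 of all genes, 2 to 5 translation factors, 0 to 1 TOP, 1 to 9 biogenesis, 1 to 3 late maturation, 0 to 1 RNA polymerase I, 1 to 4 mTORC1, 2 to 5 p53 and 8 to 29 mitochondrial ribosomal genes.

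Signs turned for Rpl13 (0.19 with the mean of probe sets), Rpl13a (0.018 quantile, 0.045 centred), Rpl7l1 (0.018 centred, 0.069 with the mean of probe sets), Rps19bp1 (0.036 centred), Rps4x (0.020 centred), Rpsa (0.036 quantile, 0.052 centred), Rpl12 (0.0012 centred), Rpl31 (0.0045 centred), Rpl15 (0.047 with the mean of probe sets), Rps20 (-0.069 with the mean of probe sets, -0.277 without x_at and s_at) and Rpl41 (-0.025 and -0.109). With each array left out in turn, log2 fold changes also crossed 0 for Rpl13a (-0.064 to 0.026), Rpl7l1 (-0.097 to 0.0039), Rps19bp1 (-0.074 to 0.017), Rps29 (-0.015 to 0.117) and Rpsa (-0.033 to 0.0088). The cause of these moves was not tested.

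The replicate number as a block left 7 genes lower, all among the 9. The numbers are only shared, as deviations of same-numbered arrays correlated at r = 0.04, and 2 pairs do not settle whether they pair the arrays.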
